A study of Homo sapiens with 6 samples.

Results

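Integrins are cell surface receptors made of 1 alpha and 1 beta subunit, and a subunit reaches the surface only as part of such a pair. ITGB3 pairs with ITGAV, and in platelets with ITGA2B. The pair with ITGAV binds matrix proteins that carry the arginine-glycine-aspartate motif, such as vitronectin, fibronectin and osteopontin, and has been studied as a receptor of invading glioblastoma cells. ITGAV is shared by several beta subunits and ITGB1 by many alpha subunits, so the supply of 1 partner bounds the pairs the other can form.

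Described here are 10 integrin subunit genes around ITGB3, taken by gene symbol from the 28265 genes of the count tables: the beta subunits ITGB3, ITGB1, ITGB5 and ITGB8, and the alpha subunits ITGAV, ITGA2, ITGA3, ITGA4, ITGA5 and ITGA6. Membership goes by symbol, and the symbols were picked with earlier results of these data known. Total RNA was sequenced from LN229, an established human glioblastoma cell line grown in serum-containing medium, with 3 libraries of genotype TRIM25 knockdown and 3 of genotype WT. TRIM25 is an E3 ubiquitin ligase, and the series design gives a short hairpin RNA as the means of its knockdown. The labels name neither the hairpin sequence nor a clone, do not say whether the WT cells, whose titles carry the letters NC, held a control hairpin, and are silent on whether each library had its own culture. P-values therefore measure only the spread between these libraries.

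TRIM25 mRNA itself went against the label. It stood at 38.9, 40.1 and 45.3 TPM (a level per gene length, scaled to the same sum in every library) in the libraries labelled knockdown, against 17.4, 17.1 and 16.9 TPM in the WT libraries, with a log2 fold change of 1.22 ± 0.07 (SE; edgeR adjusted p = 3.23e-09). Groups are therefore called by their labels, and no direction below can be read as an effect of less TRIM25 mRNA. Library totals ranged from 11349865 to 16404725 counts, and 14315 genes passed the low-count filter and were tested. All 10 subunits passed it. The labelled origin was checked on 9 astroglial and glioblastoma markers. Of these VIM, S100B, NES, CD44 and SOX2 were plentiful. EGFR stood at 13.3 to 16.8 TPM and OLIG2 at 4.73 to 9.95 TPM over the 6 libraries. GFAP stayed at or under 0.201 TPM and CHI3L1 at or under 0.204 TPM in every library. The summed level of 7 endothelial markers was 1.27 to 1.49 TPM in the labelled knockdown libraries and 1.26 to 1.54 TPM in the WT libraries. The 5 platelet markers, ITGA2B among them, summed to 0.972 to 2.01 TPM in libraries labelled knockdown and 1.40 to 1.89 TPM in WT libraries, with GP9, PF4 and PPBP at 0 counts in all 6 libraries. The 8 leukocyte markers summed to 1.60 to 3.18 TPM in libraries labelled knockdown and 2.35 to 3.36 TPM in WT libraries, with AIF1 and TYROBP at 0 counts throughout. Of the 7 tested astroglial and glioblastoma markers NES rose (log2 fold change 0.27) and SOX2, OLIG2 and S100B fell (-0.66, -0.67 and -0.33), and the part of these shifts in the integrin results was not tested.

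Of the 10 subunits, 5 rose in the libraries labelled knockdown (ITGB3, ITGA5, ITGB8, ITGA2 and ITGB1), 1 fell (ITGB5) and 4 did not pass the test (ITGAV, ITGA3, ITGA4 and ITGA6). A gene counts as risen or fallen where the edgeR quasi-likelihood test, adjusted over all tested genes by the Benjamini-Hochberg method, gave a p under 0.05. Among all tested genes 23.3% passed this threshold, 12.2% as higher and 11.0% as lower. ITGB3 stood apart in size: it rose 2.09-fold (95% interval 1.91 to 2.27), and the other 4 rose by 1.21-fold to 1.38-fold. The groups did not overlap in counts per 1000000 (CPM) for 6 of the 10, beside 37.3% of all tested genes. In bulk RNA, a change in the number of cells that express a gene and a change in RNA per cell cannot be told apart. Being called and at least 2-fold higher was found in 0.286% of tested genes. The median log2 fold change of the 10 subunits was 0.23, and over all tested genes it was -0.00376. With an adjustment for gene length and GC content these medians were 0.17 and 0.0158.

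**Figure D1:**
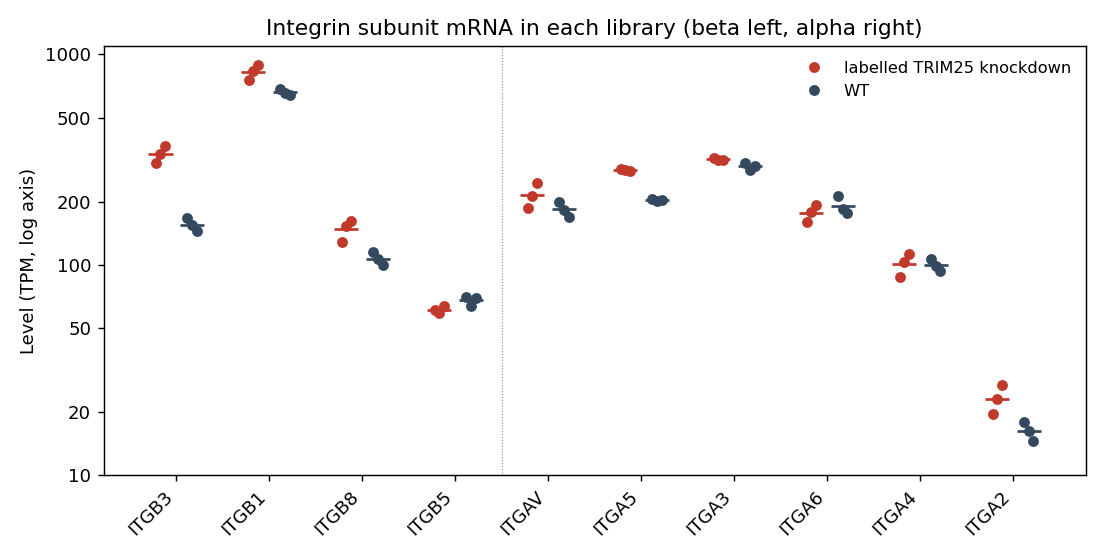
Level of each subunit in TPM (log axis) in each of the 6 libraries, labelled knockdown in red to the left of WT in dark grey, with a line at each group's mean. ITGB3 is at 304.5 TPM or more in the libraries labelled knockdown and at 166.6 TPM or less in WT, and ITGB1 is the most abundant subunit in every library.

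ITGB3 had 304.5, 337.3 and 366.1 TPM in the libraries labelled knockdown, against 166.6, 154.5 and 145.7 TPM in the WT libraries. The raw counts were 6436, 6487 and 9939 in the libraries labelled knockdown and 4570, 3793 and 4143 in WT libraries, so the labelled knockdown libraries held more ITGB3 reads even where they were sequenced less deeply. The groups did not overlap, and the log2 fold change was 1.06 ± 0.06 (SE; edgeR adjusted p = 3.23e-09). Among the 304 other tested genes with at least the mean abundance of ITGB3, 0 had a larger log2 fold change, and the next, AKAP12, had 0.66. Less abundant genes were not part of that comparison. Among called higher genes of any abundance ITGB3 ranked 35 by log2 fold change. Leaving out any 1 library kept the ITGB3 log2 fold change between 1.01 and 1.11, and an adjustment for gene length and GC content left it at 1.06.

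The ITGB3 locus on chromosome 17 carries a caution about counting. In GENCODE release 29 ITGB3 has 2266 bp, 51.6% of its exonic sequence, in common with a same-strand gene model, AC068234.1, a transcript that runs on towards the neighbouring gene EFCAB13. No values of that model were used here, and reads in the shared exons cannot be told apart. EFCAB13, looked at for its position, rose too, with 12.9, 14.7 and 14.4 TPM in the libraries labelled knockdown and 7.77, 7.63 and 7.32 TPM in WT libraries (log2 fold change 0.84 ± 0.09, SE; edgeR adjusted p = 3.94e-06). CDC27, the nearest tested neighbour in the other direction, had a log2 fold change of 0.13 ± 0.07 (SE; edgeR adjusted p = 0.183), and MYL4 between them had 0 to 4 counts per library. Whether transcripts that run through ITGB3 add to its count was not tested.

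ITGB8, whose pair with ITGAV binds latent TGF-beta, was higher in each library labelled knockdown, at 128.1, 152.8 and 161.6 TPM, than in any WT library, at 114.7, 106.4 and 99.8 TPM. Its log2 fold change was 0.41 ± 0.07 (SE; edgeR adjusted p = 0.000236). The length and GC adjustment reduced this to 0.29 (edgeR adjusted p = 6.52e-07). ITGB8 has the longest transcript model of the 10, at 8974 bp.

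ITGB5, the beta subunit of another vitronectin receptor with ITGAV, was the one subunit that fell. It had 61.2, 59.0 and 63.7 TPM in the libraries labelled knockdown and 70.4, 64.1 and 70.1 TPM in WT libraries. The groups were narrowly apart, with a log2 fold change of -0.20 ± 0.06 (SE; edgeR adjusted p = 0.0277). The call was lost without labelled knockdown replicate 2 (edgeR adjusted p = 0.156), WT replicate 1 (0.0643) or WT replicate 3 (0.145).

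ITGB1, the beta subunit that most alpha subunits share, had 752.5, 838.9 and 893.7 TPM in the libraries labelled knockdown, against 683.0, 653.6 and 644.1 TPM in WT. It rose 1.21-fold without overlap of the groups (log2 fold change 0.28 ± 0.05, SE; edgeR adjusted p = 0.000941). In absolute level ITGB3 and ITGB1 gained similar amounts, 180.4 and 168.1 TPM of the 512.9 TPM by which the summed level of the 10 subunits differed. That sum averaged 2492 ± 175 TPM in libraries labelled knockdown and 1979 ± 89.4 TPM in WT libraries (SD, n = 3 each).

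Among the alpha subunits, ITGA5 and ITGA2 rose. ITGA5, which with ITGB1 forms the main fibronectin receptor, had 286.3, 284.1 and 280.8 TPM in the libraries labelled knockdown, against 204.7, 200.3 and 203.4 TPM in WT. In TPM the spread within each group was small beside the gap between them. In CPM the libraries labelled knockdown lay further apart, at 437.8, 419.3 and 406.1, against 306.8, 309.8 and 317.6 in WT. ITGA5 had a log2 fold change of 0.43 ± 0.05 (SE; edgeR adjusted p = 1.87e-05). Its GC content of 56.2% is above that of the other risers, and after the length and GC adjustment its log2 fold change was 0.49. ITGA2, a collagen receptor subunit, was the least abundant of the 10, at 19.7, 23.0 and 26.8 TPM in libraries labelled knockdown and 17.9, 16.3 and 14.6 TPM in WT libraries. Its groups did not overlap (log2 fold change 0.46 ± 0.09, SE; edgeR adjusted p = 0.00119), and the adjusted value was 0.35.

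ITGAV, the partner ITGB3 needs in these cells, did not pass. It had 187.3, 213.6 and 246.4 TPM in the libraries labelled knockdown and 198.7, 183.3 and 169.5 TPM in WT libraries, and the groups overlapped. The log2 fold change of 0.18 (95% interval 0.03 to 0.33) had an edgeR adjusted p of 0.0698. The value leaned on single libraries: without labelled knockdown replicate 1 it was 0.26 (edgeR adjusted p = 0.000751), and without labelled knockdown replicate 3 it was 0.09 (0.313). With the length and GC adjustment it was 0.05 (edgeR adjusted p = 0.320).

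The laminin receptor subunits ITGA3 and ITGA6 and the VCAM1 and fibronectin receptor subunit ITGA4 did not pass either. ITGA3 had 323.0, 315.7 and 314.9 TPM in libraries labelled knockdown and 306.3, 282.1 and 294.9 TPM in WT libraries (log2 fold change 0.06, 95% interval -0.05 to 0.17). ITGA4 had 88.1, 103.1 and 113.0 TPM in libraries labelled knockdown against 106.2, 98.9 and 93.6 TPM in WT, the value nearest to 0 among the 10 (log2 fold change -0.02, 95% interval -0.16 to 0.12). ITGA6 had 160.0, 177.9 and 192.2 TPM in libraries labelled knockdown against 212.0, 183.6 and 177.0 TPM in WT (log2 fold change -0.16, 95% interval -0.29 to -0.03; edgeR adjusted p = 0.0753). The groups of ITGA4 and ITGA6 overlapped in TPM and in CPM, while those of ITGA3 were apart in TPM and overlapped in CPM. ITGA6 passed without labelled knockdown replicate 3 (edgeR adjusted p = 0.0298). With the length and GC adjustment ITGA3 passed as higher (0.10, edgeR adjusted p = 0.0237), and ITGA4 and ITGA6 passed as lower (-0.13 and -0.25, edgeR adjusted p = 0.00735 and 1.48e-05), so that 6 subunits were higher and 3 lower. With that adjustment 32.4% of all tested genes passed, 18.1% as higher and 14.3% as lower.

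**Figure D2:**
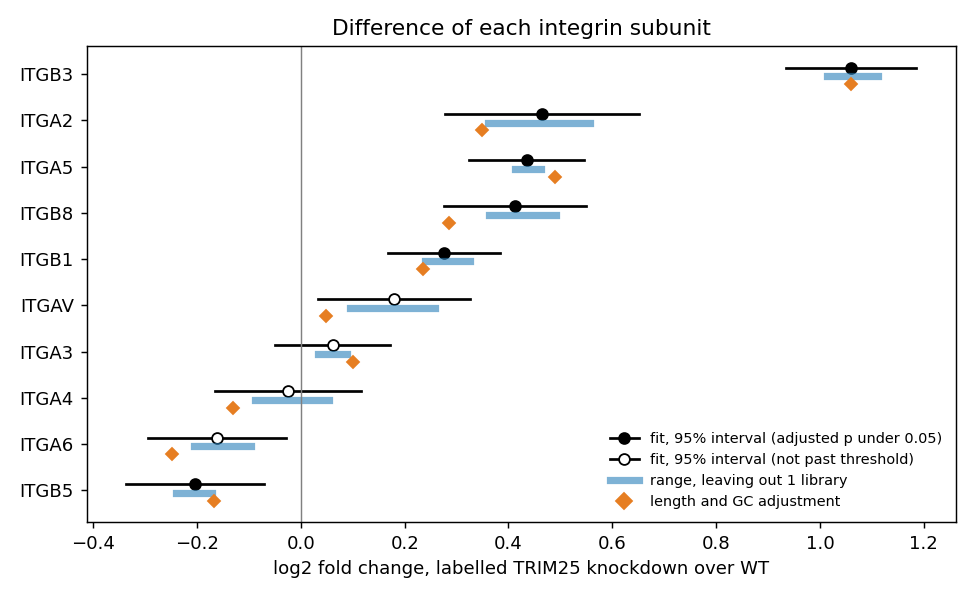
Log2 fold change of each subunit, labelled knockdown over WT, with its 95% interval (black), the range over the 6 fits that each leave out 1 library (blue bar) and the value after the length and GC adjustment (orange diamond). ITGB3 lies near 1.06 under each of these, while the adjustment puts ITGAV at 0.05, ITGA4 at -0.13 and ITGA6 at -0.25.

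Gene length and GC content moved with these values. All 10 subunits have transcript models longer than the median tested gene (3592 bp). Across genes, which are not independent replicates, longer genes had higher log2 fold changes (Spearman's rho 0.30) and GC-rich genes lower ones (rho -0.26). Trends with length and GC content also ran between libraries of 1 group. Of the 10 subunits, 7 were lowest in labelled knockdown replicate 1 and 7 were highest in labelled knockdown replicate 3. There rho of the deviation from the group mean was -0.38 and 0.38 with length, and 0.58 and -0.51 with GC content. In the WT group 7 were highest in replicate 1 and 7 lowest in replicate 3. There rho was 0.41 and -0.36 with length, and -0.19 and 0.31 with GC content. The most GC-rich of the 10 were ITGA3, ITGA5 and ITGB5 (58.3%, 56.2% and 54.2%). In CPM these were highest in labelled knockdown replicate 1 and in WT replicate 3. The calls of ITGB3, ITGA5, ITGB8, ITGA2 and ITGB1 held under each of the 15 other settings run, those with the adjustment included.

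The order of levels also changed. In the libraries labelled knockdown it was ITGB1, ITGB3, ITGA3, ITGA5, ITGAV, ITGA6, ITGB8, ITGA4, ITGB5 and ITGA2 from high to low, and the ranges of ITGB3 and ITGA3, of ITGAV and ITGA6, and of ITGA6 and ITGB8 overlapped. In WT libraries it was ITGB1, ITGA3, ITGA5, ITGA6, ITGAV, ITGB3, ITGB8, ITGA4, ITGB5 and ITGA2, with overlap between ITGA5 and ITGA6, ITGA6 and ITGAV, and ITGB8 and ITGA4. ITGB3 thus ranked second in the libraries labelled knockdown and sixth in WT libraries, by mean TPM.

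The upstream sequence of the subunits that passed the test is shown because 5 of them have an entry in the RefSeq promoter table (build GRCh38.p14), which held 8 of the 10 subunits and not ITGB3 or ITGA3. Each window is the 250 bases before the annotated start, 5′ to 3′ on the gene's strand, and for genes with several starts the most upstream one. Capitals mark the GC box GGGCGG and the CCAAT box, on either strand.
ITGA5, chr12:54419267-54419516, minus strand: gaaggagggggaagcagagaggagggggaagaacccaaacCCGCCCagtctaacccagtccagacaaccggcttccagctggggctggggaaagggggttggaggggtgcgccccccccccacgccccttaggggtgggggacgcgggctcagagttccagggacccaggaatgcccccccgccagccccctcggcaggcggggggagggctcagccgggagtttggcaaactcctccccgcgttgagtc
ITGA2, chr5:52989102-52989351, plus strand: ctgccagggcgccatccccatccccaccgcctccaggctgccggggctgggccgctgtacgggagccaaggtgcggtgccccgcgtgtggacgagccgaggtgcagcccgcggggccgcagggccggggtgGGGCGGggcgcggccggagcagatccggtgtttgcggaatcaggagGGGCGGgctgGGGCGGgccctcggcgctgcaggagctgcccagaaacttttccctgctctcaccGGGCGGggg
ITGB8, chr7:20330650-20330899, plus strand: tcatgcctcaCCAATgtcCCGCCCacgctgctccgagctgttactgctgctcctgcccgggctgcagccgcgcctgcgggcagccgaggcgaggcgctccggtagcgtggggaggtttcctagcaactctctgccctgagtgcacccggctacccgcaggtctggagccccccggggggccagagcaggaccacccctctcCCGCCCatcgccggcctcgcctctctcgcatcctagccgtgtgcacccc
ITGB1, chr10:32958231-32958480, minus strand: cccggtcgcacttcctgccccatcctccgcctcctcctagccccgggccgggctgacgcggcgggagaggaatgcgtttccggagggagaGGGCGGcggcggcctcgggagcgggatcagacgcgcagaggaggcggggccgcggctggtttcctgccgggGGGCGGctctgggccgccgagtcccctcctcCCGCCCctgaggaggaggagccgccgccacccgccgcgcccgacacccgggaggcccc
ITGB5, chr3:124901419-124901668, minus strand: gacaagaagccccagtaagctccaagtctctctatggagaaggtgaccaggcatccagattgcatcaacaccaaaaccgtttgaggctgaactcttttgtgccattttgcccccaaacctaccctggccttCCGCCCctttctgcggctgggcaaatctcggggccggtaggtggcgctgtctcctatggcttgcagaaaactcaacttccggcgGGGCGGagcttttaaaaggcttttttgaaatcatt

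A GC box, searched on both strands, stood in 5 of the 8 windows, with 4 copies in ITGA2, 3 in ITGB1, 2 in ITGB8, 2 in ITGB5 and 1 in ITGA5. It was in 42.6% of all 35116 windows of this length in the table. The windows of ITGAV, ITGA4 and ITGA6, subunits that did not pass the test, held none. With the length and GC adjustment ITGA4 and ITGA6 did pass, as lower. Whether the GC box goes with the calls was not tested. The windows of the 4 risers were 70.0% to 78.4% G and C, and that of ITGB5, which fell, 52.8%. Those of ITGAV, ITGA4 and ITGA6, which did not pass, were at 70.8%, 72.8% and 50.8%, and the median of all windows was 58.0%. The E-box CACGTG was in 1 window, that of ITGA6, and in 6.34% of all windows. The CCAAT box was in that of ITGB8 and in 32.0% of all windows, and the TATA box TATAAA in that of ITGA6 and in 10.7%. The AP-1 motif TGANTCA and the NF-kB motif were in 0 of the 8 windows, and in 6.57% and 1.40% of all windows. These letters describe annotated starts, and which starts these cells use was not measured. ITGB5 had 3 listed starts, and ITGAV, ITGB1 and ITGA6 had 2 each. Windows of their other starts are not described here.

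Levels per length were next set against the known alpha and beta pairings. Of 24 pairings of the integrin family, 13 had both subunits at 1 TPM or more in all 6 libraries, and among these were ITGAV with ITGB1, ITGB3, ITGB5 and ITGB8, and ITGB1 with ITGA2, ITGA3, ITGA4, ITGA5 and ITGA6. ITGB6, which also pairs with ITGAV, had 0 to 4 counts per library. ITGA2B, the platelet partner of ITGB3, had 1.27 ± 0.451 TPM in libraries labelled knockdown and 1.70 ± 0.319 TPM in WT libraries (SD, n = 3 each), against 215.8 and 183.8 TPM of ITGAV. Messenger RNA sets no protein amount, so these are bounds on the transcript level only.

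ITGB3 and ITGAV changed places. The ITGB3 level was 1.63, 1.58 and 1.49 times that of ITGAV in the libraries labelled knockdown, and 0.838, 0.843 and 0.860 times in the WT libraries. The less abundant transcript of the pair was thus ITGAV in each library labelled knockdown and ITGB3 in each WT library. The level of this less abundant transcript averaged 215.8 ± 29.6 TPM in libraries labelled knockdown and 155.6 ± 10.4 TPM in WT libraries (SD, n = 3 each). ITGAV itself did not pass the test (log2 fold change 0.18, and 0.05 with the length and GC adjustment). Levels, ratios and shares given here and below were not put through that adjustment. On CPM, not divided by length, the ITGB3 to ITGAV ratio was 1.10, 1.07 and 1.01 in libraries labelled knockdown and 0.568, 0.572 and 0.583 in WT libraries. With 3 libraries a group, the exact two-sided permutation test cannot go below p = 0.1, and the ratio reached that value (adjusted p = 0.12 over 12 ratios and shares).

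The beta subunits other than ITGB1 that pair with ITGAV were in excess of it in both groups, and by more in the libraries labelled knockdown. ITGB3, ITGB5, ITGB6 and ITGB8 together had 544.7 ± 48.9 TPM in libraries labelled knockdown and 330.8 ± 18.7 TPM in WT libraries (SD, n = 3 each), which was 2.54 ± 0.122 times the ITGAV level in libraries labelled knockdown and 1.80 ± 0.0523 times in WT libraries. Within that sum ITGB3 made up 61.7%, 61.4% and 61.9% in libraries labelled knockdown, against 47.4%, 47.5% and 46.2% in WT libraries. The ITGB5 share was 11.3% ± 0.947 in libraries labelled knockdown and 20.6% ± 1.35 in WT libraries (SD, n = 3 each). The ITGB8 share was 27.0% ± 0.977 in libraries labelled knockdown and 32.3% ± 0.612 in WT libraries. ITGB8 thus rose in level while its share of the sum was lower. With ITGB1 counted as well, ITGB3 made up 24.5% ± 0.178 of the beta transcripts that can pair with ITGAV in libraries labelled knockdown and 15.7% ± 0.464 in WT libraries (SD, n = 3 each; exact permutation p = 0.1, the smallest possible).

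**Figure D3:**
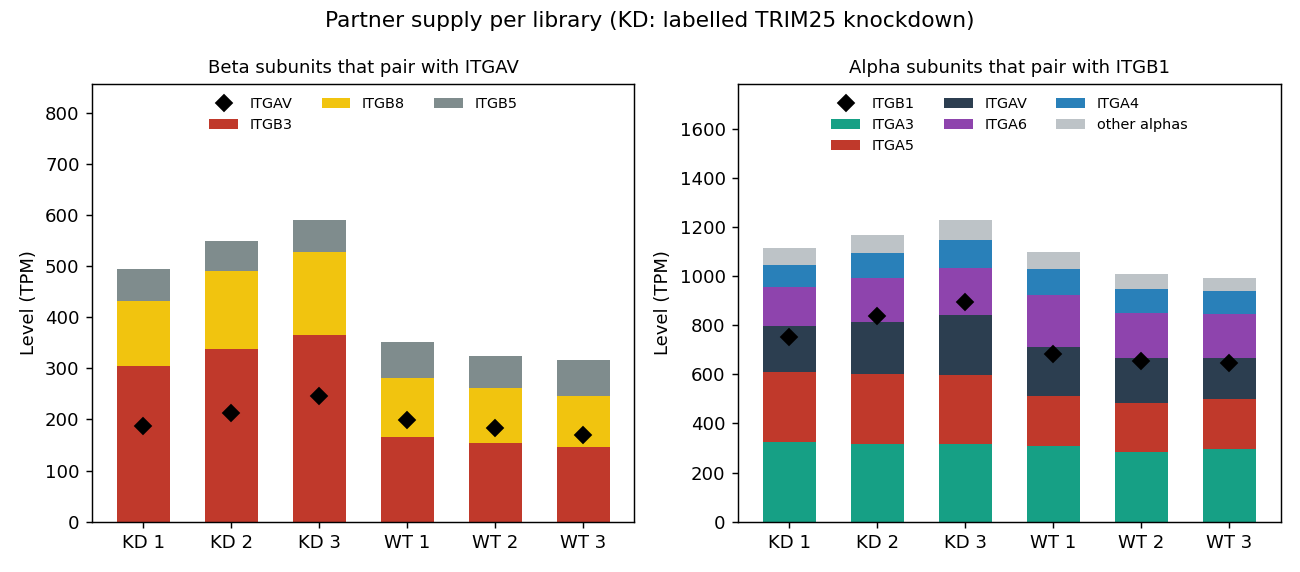
Left, levels in TPM of ITGB3, ITGB8 and ITGB5 stacked per library with the ITGAV level as a diamond (ITGB6 was near 0 and is not drawn); right, the alpha subunits that pair with ITGB1 stacked, with the ITGB1 level as a diamond. The ITGAV diamond lies inside the ITGB3 segment in the libraries labelled knockdown (KD) and above it in WT, and the alpha sum exceeds ITGB1 in every library.

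On the ITGB1 side the alpha subunits were in excess. The 12 alpha subunits that can pair with ITGB1, ITGAV included, summed to 1170 ± 58.9 TPM in libraries labelled knockdown and 1033 ± 55.8 TPM in WT libraries, or 1.42 ± 0.0546 times the ITGB1 level in libraries labelled knockdown and 1.56 ± 0.0365 times in WT libraries (SD, n = 3 each; exact permutation p = 0.1, adjusted p = 0.12). In every pairing with ITGB1 the alpha subunit was the less abundant transcript, in all 6 libraries. ITGA5 made up 25.7%, 24.3% and 22.8% of the alpha sum in libraries labelled knockdown, against 18.7%, 19.9% and 20.5% in WT, while the ITGA6 share was 14.4%, 15.2% and 15.6% in libraries labelled knockdown, against 19.3%, 18.2% and 17.8% in WT. These shares did not overlap between groups (exact permutation p = 0.1 for each). The ITGA3 share overlapped, at 25.6% to 29.05% in libraries labelled knockdown and 27.9% to 29.7% in WT libraries (exact permutation p = 0.4). ITGA5 relative to ITGB1 gave 0.344 ± 0.0335 in libraries labelled knockdown and 0.307 ± 0.00800 in WT libraries, values that also overlapped (exact permutation p = 0.2).

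Most of the rest of the family was scarce. ITGA9 was an exception, with a mean above that of ITGA2 in both groups (ITGA2 23.2 TPM in libraries labelled knockdown and 16.3 TPM in WT libraries). Of the 16 other integrin subunit genes 10 passed the low-count filter. Of these, 2 rose (ITGA9 and ITGAM) and 3 fell (ITGA11, ITGB4 and ITGAE), beside 12.2% and 11.0% of all tested genes. The median log2 fold change of these 10 was -0.16. ITGA9, an ITGB1 partner, was the most abundant of them at 29.9 ± 1.95 TPM in libraries labelled knockdown and 23.4 ± 3.40 TPM in WT libraries (SD, n = 3 each; log2 fold change 0.31). Its call was lost without WT replicate 2 (edgeR adjusted p = 0.0630) or 3 (0.0775). On the opposite strand 535 bp of ITGA9 exons overlap ITGA9-AS1. ITGA1, a collagen receptor subunit, had 17.5 ± 2.33 TPM in libraries labelled knockdown and 16.7 ± 1.72 TPM in WT libraries (log2 fold change 0.02), and 475 bp of its exons also belong to PELO. ITGB4, the laminin receptor subunit that pairs with ITGA6, fell by 0.46 on the log2 scale to 6.07 ± 0.842 TPM in libraries labelled knockdown, against 8.01 ± 0.894 TPM in WT, a call lost without labelled knockdown replicate 2 (edgeR adjusted p = 0.0504) or 3 (0.0518) or WT replicate 3 (0.0556).

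ITGAM, a leukocyte alpha subunit, rose by 1.28 on the log2 scale on few reads, with 35, 40 and 41 counts in libraries labelled knockdown and 13, 20 and 22 in WT libraries. Its partner ITGB2 had 6, 5 and 13 counts in libraries labelled knockdown against 3, 3 and 11 counts in WT, and was not tested. ITGA11, a collagen receptor subunit, fell by 0.94 on the log2 scale, at 0.772, 0.574 and 1.01 TPM in libraries labelled knockdown and 1.61, 1.64 and 1.25 TPM in WT libraries. ITGAE fell by 0.40, a call lost without labelled knockdown replicate 2 (edgeR adjusted p = 0.0619) or WT replicate 2 (0.0697), and its partner ITGB7 had at most 18 counts in any library. On the opposite strand 427 bp of ITGAE exons overlap HASPIN. That gene had 9.94 TPM in libraries labelled knockdown and 8.17 TPM in WT libraries on average. How reads there were counted is not known. ITGA7 and ITGA2B did not pass (log2 fold changes -0.34 ± 0.18 and -0.51 ± 0.28, SE).

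Inside the cell, integrin tails bind talins and kindlins, which switch the receptors on, and a complex of ILK, PINCH and parvin that links them to actin. Of 35 tested activators, adaptors and focal adhesion genes 6 rose, 6 fell and 23 did not pass, with a median log2 fold change of 0.05. Among all tested genes 12.2% rose and 11.0% fell. With the length and GC adjustment 12 of the 35 were higher and 7 lower, beside 18.1% and 14.3% of all tested genes. The largest rises were those of TLN2, the less abundant talin (0.59 ± 0.10, SE), PTK2B (0.51 ± 0.12), and LPXN (0.47 ± 0.08), a paxillin relative. KANK2, which binds talin, fell by 0.35. Core members, chosen for their role after their values were seen, went different ways. FLNA (0.22 ± 0.05) and PXN (0.17 ± 0.06) rose, and ILK (-0.21 ± 0.06) and PARVA (-0.25 ± 0.07) fell. The FLNA call held without any 1 library. The ILK call was lost without labelled knockdown replicate 2 (edgeR adjusted p = 0.0854) or 3 (0.123) or WT replicate 1 (0.0536), 2 (0.0840) or 3 (0.121), and with the length and GC adjustment (0.0505). The PARVA call was lost without labelled knockdown replicate 2 (edgeR adjusted p = 0.0511) or WT replicate 1 (0.0577) or 2 (0.0676). The PXN call was lost without labelled knockdown replicate 2 (edgeR adjusted p = 0.151) or WT replicate 2 (0.152) or 3 (0.114). TLN1 (0.12 ± 0.05), FERMT2 (0.11 ± 0.07) and the focal adhesion kinase gene PTK2 (0.03 ± 0.07) did not pass. ITGB3BP, which encodes a nuclear protein despite its name, did not pass either (0.17 ± 0.07; edgeR adjusted p = 0.0922).

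Of 13 membrane partners of integrins 3 rose, 4 fell and 6 did not pass (median log2 fold change -0.13). The shares over all tested genes were 12.2% risen and 11.0% fallen. The tetraspanin gene CD82 rose by 0.62 ± 0.08 (SE) on the log2 scale, to 37.8 ± 1.74 TPM in libraries labelled knockdown, against 23.7 ± 0.491 TPM in WT (SD, n = 3 each). The tetraspanin gene CD151, whose protein binds laminin-receptor integrins, fell by 0.30, and the syndecan gene SDC1 by 0.57. The urokinase receptor gene PLAUR fell by 0.32, a call lost without labelled knockdown replicate 3 (edgeR adjusted p = 0.0635), WT replicate 2 (0.0558) or WT replicate 3 (0.0793). CD47, an ITGB3 partner chosen in the same way, had a log2 fold change of -0.03 ± 0.07 (SE).

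Ligands of the ITGAV and ITGA5 pairs moved both ways. Of 22 tested, 6 rose, 3 fell and 13 did not pass, with a median log2 fold change of 0.10. Over all tested genes 12.2% rose and 11.0% fell. With the length and GC adjustment 9 of the 22 were higher and 4 lower, with a median of 0.06, beside 18.1% and 14.3% of all tested genes. CCN1, a matricellular ligand of the ITGB3 pair, rose 1.87-fold, with 77.2, 75.4 and 81.8 TPM in libraries labelled knockdown and 41.6, 37.1 and 42.6 TPM in WT libraries (edgeR adjusted p = 2.72e-07). The fibrillin gene FBN1 rose by 0.76 on the log2 scale. POSTN, which encodes periostin, another ligand of ITGAV integrins, fell 5.17-fold, and TGFB2 fell by 0.78 on the log2 scale. Both were at low levels. POSTN had 1.36 ± 0.384 TPM in libraries labelled knockdown (17, 24 and 21 counts) and 6.66 ± 0.577 TPM in WT libraries. TGFB2 had 4.61 ± 0.894 TPM in libraries labelled knockdown and 7.78 ± 0.985 TPM in WT libraries (SD, n = 3 each). Fibronectin (FN1), chosen for its role after its value was seen, had 594.9, 679.0 and 719.0 TPM in libraries labelled knockdown against 772.6, 643.1 and 593.0 TPM in WT, and did not pass (log2 fold change -0.06 ± 0.07, SE). Osteopontin (SPP1), chosen in the same way, rose 1.28-fold to 235.6 ± 15.4 TPM in libraries labelled knockdown, against 178.1 ± 3.99 TPM in WT (SD, n = 3 each; edgeR adjusted p = 0.000665). Vitronectin (VTN) had at most 5 counts in any library.

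Of 21 tested collagen, laminin and VCAM1 ligands of ITGB1 integrins 4 rose, 4 fell and 13 did not pass (median log2 fold change 0.10). The all-gene shares were 12.2% risen and 11.0% fallen. The tested genes of this list had a median length of 7449 bp. With the length and GC adjustment 7 of them were higher and 4 lower, with a median of 0.06, beside 18.1% and 14.3% of all tested genes. COL5A2 fell 5.09-fold, at 3.49, 4.25 and 4.88 TPM in libraries labelled knockdown and 22.7, 20.1 and 19.7 TPM in WT libraries (edgeR adjusted p = 5.27e-11). HSPG2, which encodes perlecan, rose by 0.48 on the log2 scale. COL1A1 and LAMA5 fell by 0.56 and 0.41, at no more than 3.5 TPM, and both calls depended on single libraries: without 1 library the highest edgeR adjusted p was 0.134 for COL1A1 and 0.160 for LAMA5. VCAM1, the cell surface ligand of ITGA4, had at most 9 counts in any library.

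**Figure D4:**
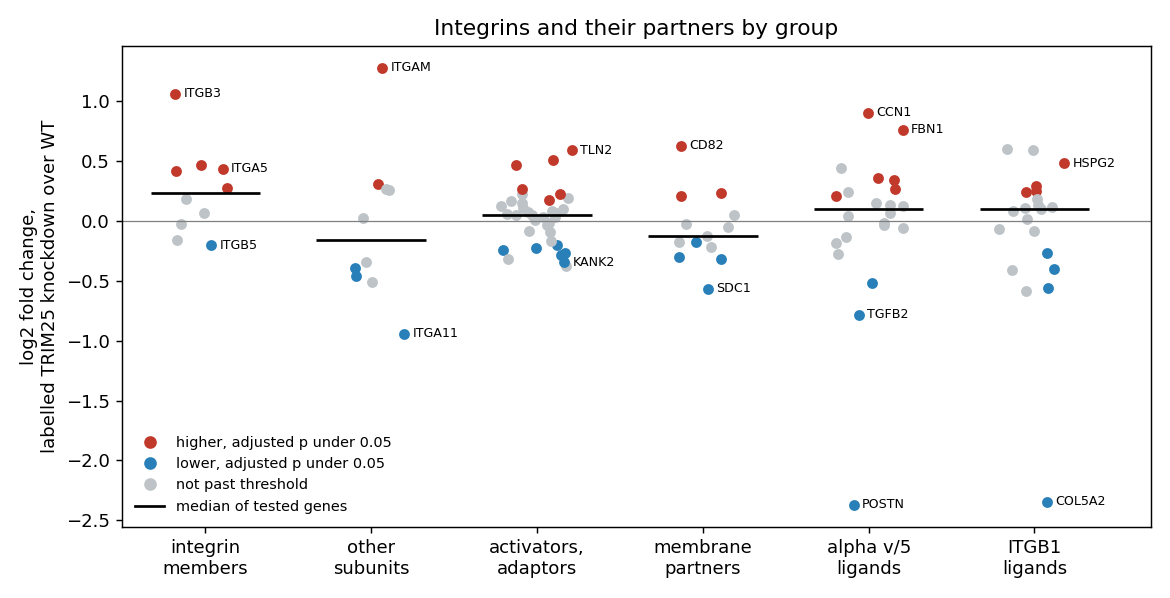
Log2 fold change, labelled knockdown over WT, of every tested gene in 6 groups: the 10 integrin subunits described here, the other integrin subunits, activators and adaptors, membrane partners, ligands of the ITGAV and ITGA5 pairs, and ligands of ITGB1 pairs. Red and blue points are higher and lower at an adjusted p under 0.05, and grey points did not pass. The black line is the group's median, 0.23 for the 10 subunits and between -0.16 and 0.10 for the other groups. With the length and GC adjustment, which is not drawn, these medians were 0.17 and between -0.22 and 0.06.

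The genes whose profile over the 6 libraries lay closest to that of ITGB3 were FYB1, IL1A and NRIP1. Likeness was the Euclidean distance between log2 CPM values centred on each gene's mean, over 6 libraries and 11870 candidate genes, and came to 0.163, 0.171 and 0.182. FYB1, an adaptor gene, had 15.4 ± 1.08 TPM in libraries labelled knockdown and 7.12 ± 0.410 TPM in WT libraries. IL1A, which encodes interleukin 1 alpha, had 74.9 ± 7.98 TPM in libraries labelled knockdown and 35.7 ± 1.96 TPM in WT libraries. NRIP1, a nuclear receptor corepressor gene, had 79.5 ± 12.5 TPM in libraries labelled knockdown and 38.9 ± 3.60 TPM in WT libraries (SD, n = 3 each). Their log2 fold changes were 1.07, 1.02 and 0.98, beside 1.06 for ITGB3. The distance takes in the difference between the groups, so similar fold changes follow from how these genes were picked.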

How the data were processed

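Per the submitters' processing notes, reads were handled with FastQC, MultiQC, Trim Galore and HISAT2 on build hg19, and per the labels' protocols the library kit keeps strand. Which program counted the reads, with which annotation and strand setting, is not given in the sources used here, so reads of overlapping antisense models (up to 203 bp of exon per model among the 10 subunits, with 3 such models on ITGA6) cannot be told apart. The deposited counts are whole reads per gene. The authors' FPKM equal the count per base of a fixed gene length, scaled by library total, and served to recover gene lengths. The authors' TPM are the FPKM rescaled to 1000000 per library, and are the levels printed. TPM fix the sum per length, so a TPM ratio can differ slightly from the fitted fold change.

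Counts were fitted with edgeR 4.0.16 in R 4.3.3 (filterByExpr, TMM factors 0.995 to 1.00, glmQLFit and glmQLFTest, group as the only term, all 6 libraries), and tested on simulated data: 89 of 100 genes simulated with a 1.5-fold difference and 99 of 100 with a 2-fold difference were called, among 14267 genes. Of 14067 genes simulated without a difference 8 were called. The simulation drew each gene independently, without the length and GC trends seen between these libraries. No library was a copy of another: within groups, chi-square over genes divided by its degrees of freedom was 1.95 to 8.54. The length and GC adjustment used mgcv 1.9.3 smooths per library as offsets, with GC content of GENCODE transcripts (95.3% of tested genes and all 10 subunits matched). Limma 3.58.1 (voom) and DESeq2 1.42.0 were alternatives. The 10 subunits and the gene lists were chosen with earlier results of these data known. The rule named the 10 subunits, TRIM25, up to 4 called genes per list by size of change (mean log2 CPM 1 or more), other subunits at 1 TPM or more throughout a group, and the 3 genes closest to ITGB3. Coordinates are given for the RefSeq windows only, on their own build.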

Additional observations from a re-analysis of the deposited data

How the results depend on the processing

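Of the 10 subunits, ITGB3, ITGB1, ITGB8, ITGA2 and ITGA5 were called in the same direction in all 16 settings, and the number called ranged from 5 to 9 (6 in the main setting). Over all genes 3330 were called, 1891 with the replicate number as a block, and between 1826 (without WT replicate 2) and 4941 (without labelled knockdown replicate 1) when 1 library was left out. Deviations of same-numbered libraries correlated at -0.19, 0.00821 and -0.22, and no label says what a number shares, so the numbers pair nothing. Under that block ITGB5 (adjusted p = 0.0950), PLAUR (0.0514), COL1A1 (0.0560), ILK (0.107), PARVA (0.0703) and PXN (0.126) lost their calls, and with DESeq2 COL1A1 (0.0631) and LAMA5 (0.0610). ITGAV passed with no low-count filter (edgeR adjusted p = 0.00753). ITGA1 turned to -0.15 with the length and GC adjustment (-0.147 without and -0.145 with the replicate block). When 1 library was left out ITGA1 ranged from -0.038 to 0.11 and ITGA4 from -0.089 to 0.054. The difference in the ITGB3 to ITGAV ratio was 0.717, and 0.486 on CPM not divided by length. That in the alpha sum over ITGB1 was -0.148, and -0.247 on CPM. Leaving out 1 library kept these within 0.686 to 0.755 and -0.179 to -0.127, and the ITGB3 share difference within 8.52 to 8.98 percentage points (8.77 in all 6). The causes of these shifts were not tested. Subunits at a few counts, such as ITGB6, ITGB2 and ITGB7, are limited by depth.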
